A study of Sus scrofa with 12 samples.

Results

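The innate immune sensors examined here are 10 genes for receptors of microbial patterns and their adaptors, measured in duodenal mucosa of pigs (Sus scrofa). The genes are TLR2, TLR4, TLR5, TLR3, TLR9, NOD1, NOD2, CD14, MYD88 and TOLLIP. Their probe sets are those whose gene symbol in the array's annotation equals one of these names, a match that used no measured value. The genes themselves were chosen with earlier results of these data known. They are 10 of the 13755 genes named on the array and have 31 probe sets, of which 27 passed the filter on low values. For each gene the probe set with the highest mean over all pigs is reported, and the other probe sets serve as a check.

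Toll-like receptors (TLRs) bind conserved microbial molecules at the cell surface or in endosomes. NOD1 and NOD2 sense fragments of bacterial peptidoglycan in the cytosol. Most TLRs signal through the adaptor MYD88 to NF-kB and induce cytokines and antimicrobial proteins, while TLR3 signals through TICAM1 (TRIF). In the gut, which faces a dense microbial load, these receptors are known from both epithelial cells and immune cells of the lamina propria.

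Samples came from 12 pigs aged 140 days, 6 of high and 6 of low feed efficiency (FE), with 3 males and 3 females in each FE group. The labels give no other treatment, no breed and no definition of the FE groups, and each pig had its own Affymetrix Snowball array of biotin-labelled cDNA. Pigs are numbered within their FE group, with pigs 1 to 3 male and pigs 4 to 6 female. Values are log2 signals, so a difference of 1 is a doubling, and levels of different probe sets were not compared as amounts.

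The array medians lay between 3.83 and 3.91 and the correlations between arrays between 0.951 and 0.976. The tissue label was checked against mature enterocyte markers, of which 12 of 13 listed were above the filter. The brush border genes VIL1 and ANPEP had mean log2 signals of 10.03 and 11.50, and the duodenal transcription factor PDX1 ranged from 7.37 to 7.59. Other markers on the list varied more between pigs. SI ranged from 4.48 to 9.49 and FABP2 from 5.98 to 9.34, both lowest in low FE pig 3. Array background was measured as the median of 69 antigenomic probe sets, which match no pig transcript. It ranged from 2.16 to 2.46 on high FE arrays and from 2.25 to 2.53 on low FE arrays. All 10 genes lay above it on 12 of 12 arrays. Single background probe sets nevertheless had means up to 7.62, so only TLR3 and MYD88 were above all 69 of them. The pancreatic acinar marker mean of low FE pig 6 was 6.92, against at most 3.66 in the other pigs. Without that pig the FE differences described below were -0.06 for TLR4, 0.28 for TLR5 and -0.11 for NOD2, and none of the 10 genes passed the threshold.

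The question posed by the design is whether duodenal mucosa of pigs differing in FE also differs in gene expression. None of the 10 genes passed the threshold of an adjusted p of 0.05 (limma, with sex as a term), where 0 of 33405 probe sets did, a percentage of 0. At an unadjusted p under 0.05, 0 of the 10 genes, each by its reported probe set, and 2000 probe sets (5.99%) were called. The ordinary linear model without moderation called 0 of the 10 genes after adjustment. The high FE mean was above the low FE mean for 2 genes and below it for 8, with a median difference of -0.12. Over all probe sets tested, 54.0% had the lower mean in high FE pigs and the median difference was -0.02. Values of the FE groups overlapped for all 10 genes, and 0.26% of probe sets had no overlap.

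**Figure D1:**
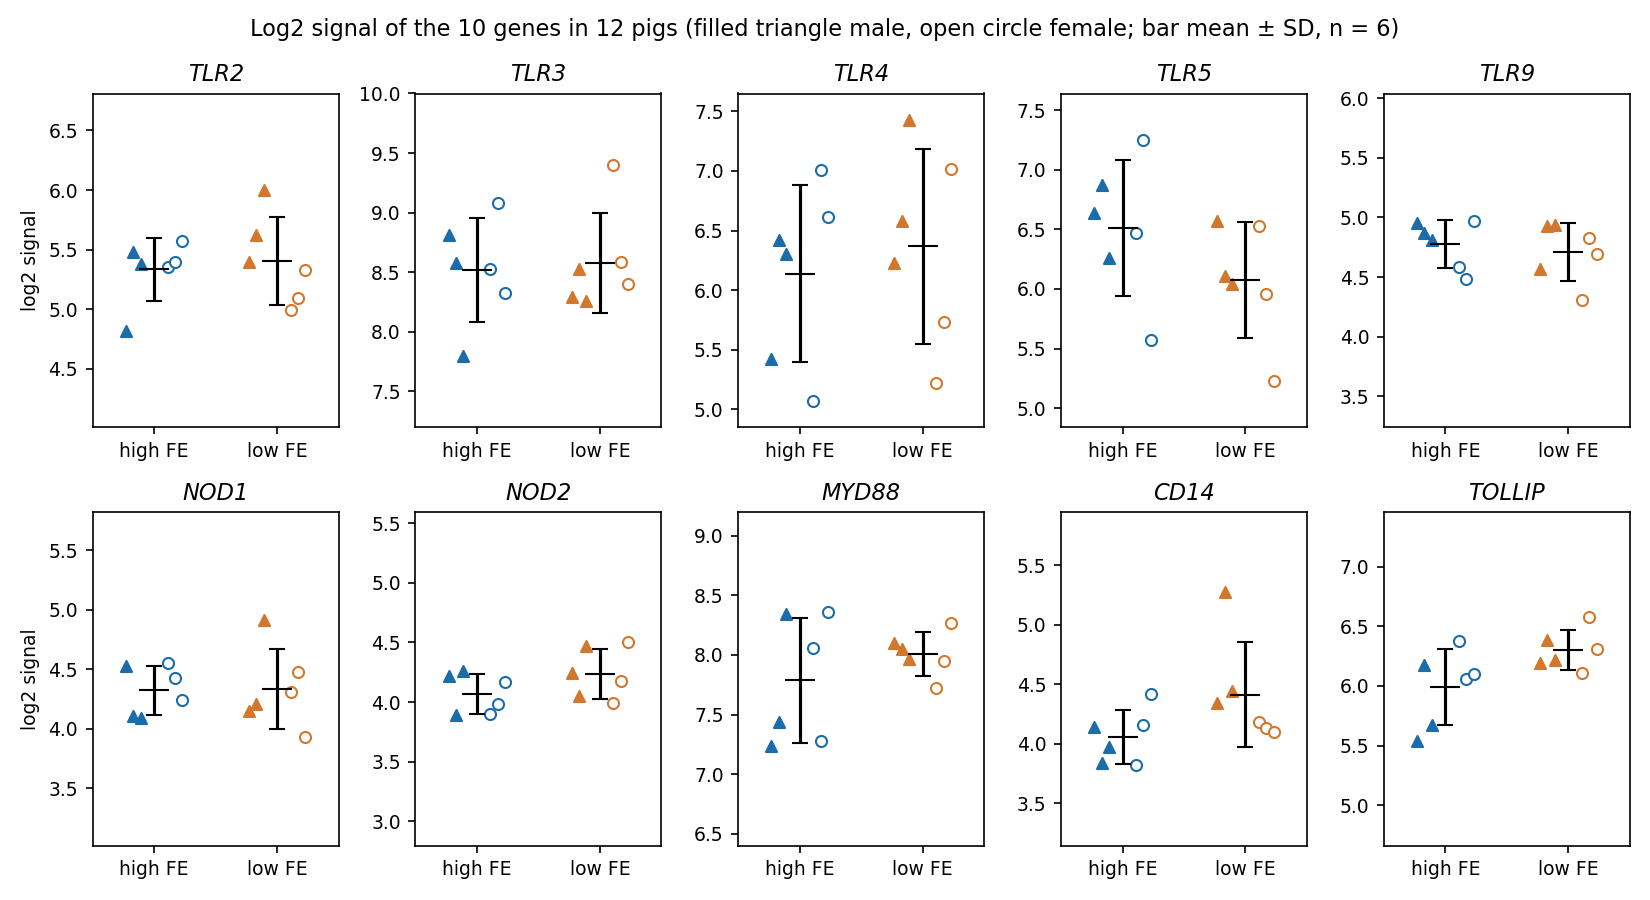
Log2 signal (vertical axis) of each of the 10 genes in high FE and low FE pigs, with filled triangles for males, open circles for females and bars for the mean ± SD of 6 pigs. The FE groups overlap in every panel, and TLR4 and TLR5 have the widest spread, with SDs over the 12 pigs of 0.75 and 0.55.

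Among the receptors at the cell surface, TLR2 recognises bacterial lipoproteins together with TLR1 or TLR6. Its log2 signal (probe set SNOWBALL_001527_st) had a lowest, median and highest value of 4.82, 5.39 and 5.57 in high FE pigs and of 4.99, 5.37 and 6.0 in low FE pigs. High FE pig 1 stood lowest, low FE pigs 2 and 3 lay above every high FE pig, and the other pigs of both groups lay among each other. Means were 5.33 ± 0.26 and 5.41 ± 0.37 (SD, n = 6 each), a difference of -0.08 ± 0.18 (SE, adjusted p = 0.924, limma).

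TLR4, the receptor for lipopolysaccharide of Gram-negative bacteria, varied more between pigs than 97.1% of the named genes above the filter. Its log2 signal had a lowest, median and highest value of 5.07, 6.36 and 7.01 in high FE pigs and of 5.22, 6.41 and 7.43 in low FE pigs. Both groups therefore spanned nearly the same range. The difference of -0.23 ± 0.41 (SE) had a 95% interval from -1.12 to 0.65, so a doubling with low FE was not excluded at this spread (adjusted p = 0.892, limma).

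CD14 hands lipopolysaccharide to TLR4 and its partner LY96, and is a marker of monocytes and macrophages. Its only probe set had a lowest, median and highest log2 signal of 3.82, 4.06 and 4.42 in high FE pigs and of 4.10, 4.26 and 5.27 in low FE pigs. Low FE pig 2 was highest, 3 high FE pigs lay below every low FE pig, and the other 3 lay within the low FE range. The means of 4.06 ± 0.23 and 4.41 ± 0.44 (SD, n = 6 each) differed by -0.35 ± 0.19 (SE), or 0.783-fold on the linear scale, with an adjusted p of 0.753 (limma). Without low FE pig 2 the difference was -0.18.

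TLR5 binds bacterial flagellin. Its log2 signal had a lowest, median and highest value of 5.57, 6.56 and 7.25 in high FE pigs and of 5.23, 6.08 and 6.57 in low FE pigs. Every low FE pig lay within or below the high FE range, and 3 high FE pigs lay above every low FE pig. The means of 6.51 ± 0.57 and 6.08 ± 0.49 (SD, n = 6 each) differed by 0.44 ± 0.28 (SE, 95% interval -0.17 to 1.04), or 1.35-fold, with an adjusted p of 0.755 (limma). TLR5 ran opposite to the array background, as described below, and with that background as a model term its FE difference was 0.05 ± 0.18 (SE). With the macrophage and monocyte marker mean as a term it was 0.11 ± 0.16. In bulk mucosa, fewer cells of a type and less RNA per cell cannot be told apart.

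The endosomal receptors TLR3 and TLR9 bind double-stranded RNA and unmethylated CpG DNA. TLR3 had a lowest, median and highest log2 signal of 7.80, 8.56 and 9.08 in high FE pigs and of 8.26, 8.46 and 9.40 in low FE pigs. The high FE pigs held the lowest value and low FE pig 4 the highest, and medians were close. TLR9 had values of 4.48, 4.84 and 4.97 in high FE pigs and of 4.31, 4.76 and 4.94 in low FE pigs, again with nearly the same range. Differences were -0.06 ± 0.22 (SE) for TLR3 and 0.06 ± 0.13 for TLR9, with adjusted p of 0.961 and 0.908 (limma). The TLR9 interval, from -0.22 to 0.35, was narrower than that of TLR3, from -0.53 to 0.42. With the array background as a model term the differences were -0.31 ± 0.18 (SE) for TLR3 and 0.18 ± 0.12 for TLR9. With the macrophage and monocyte mean as a term they were -0.27 ± 0.16 and 0.16 ± 0.12, and none of these passed.

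Of the cytosolic sensors, NOD1 had a lowest, median and highest log2 signal of 4.09, 4.33 and 4.55 in high FE pigs and of 3.93, 4.26 and 4.91 in low FE pigs. Low FE pigs thus held both its lowest and its highest value. NOD2, for which muramyl dipeptide is the ligand, had values of 3.89, 4.07 and 4.26 in high FE pigs and of 3.99, 4.21 and 4.50 in low FE pigs. For NOD2, 3 high FE pigs lay below every low FE pig and 2 low FE pigs above every high FE pig. The FE differences were -0.01 ± 0.17 (SE) for NOD1 and -0.17 ± 0.13 for NOD2, with adjusted p of 0.996 and 0.764 (limma). NOD2 had the smallest spread of the 10 genes, with an SD of 0.20 over 12 pigs, and its array signal was above 60.9% of the background probe sets.

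MYD88, the adaptor shared by most TLRs and by the interleukin-1 receptor family, had a lowest, median and highest log2 signal of 7.24, 7.75 and 8.36 in high FE pigs and of 7.72, 8.01 and 8.27 in low FE pigs. High FE pigs split into 3 at 7.24 to 7.44 and 3 at 8.06 to 8.36, whereas the low FE pigs lay between these extremes. Its difference was -0.22 ± 0.22 (SE, adjusted p = 0.795, limma).

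TOLLIP, a negative regulator of TLR and interleukin-1 receptor signalling, had the lowest unadjusted p of the 10 genes. Its only probe set gave a lowest, median and highest log2 signal of 5.54, 6.08 and 6.38 in high FE pigs and of 6.11, 6.26 and 6.58 in low FE pigs. Of the high FE pigs, 4 lay below every low FE pig, and 2 low FE pigs lay above every high FE pig. The means of 5.99 ± 0.32 and 6.30 ± 0.17 (SD, n = 6 each) differed by -0.31 ± 0.14 (SE, 95% interval -0.62 to 0.00), or 0.807-fold. The limma p was 0.0513 unadjusted and 0.753 after adjustment. For 8 of the 10 genes the 95% interval of the FE difference lay within a doubling either way, and TLR4 and TLR5 were the exceptions.

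**Figure D2:**
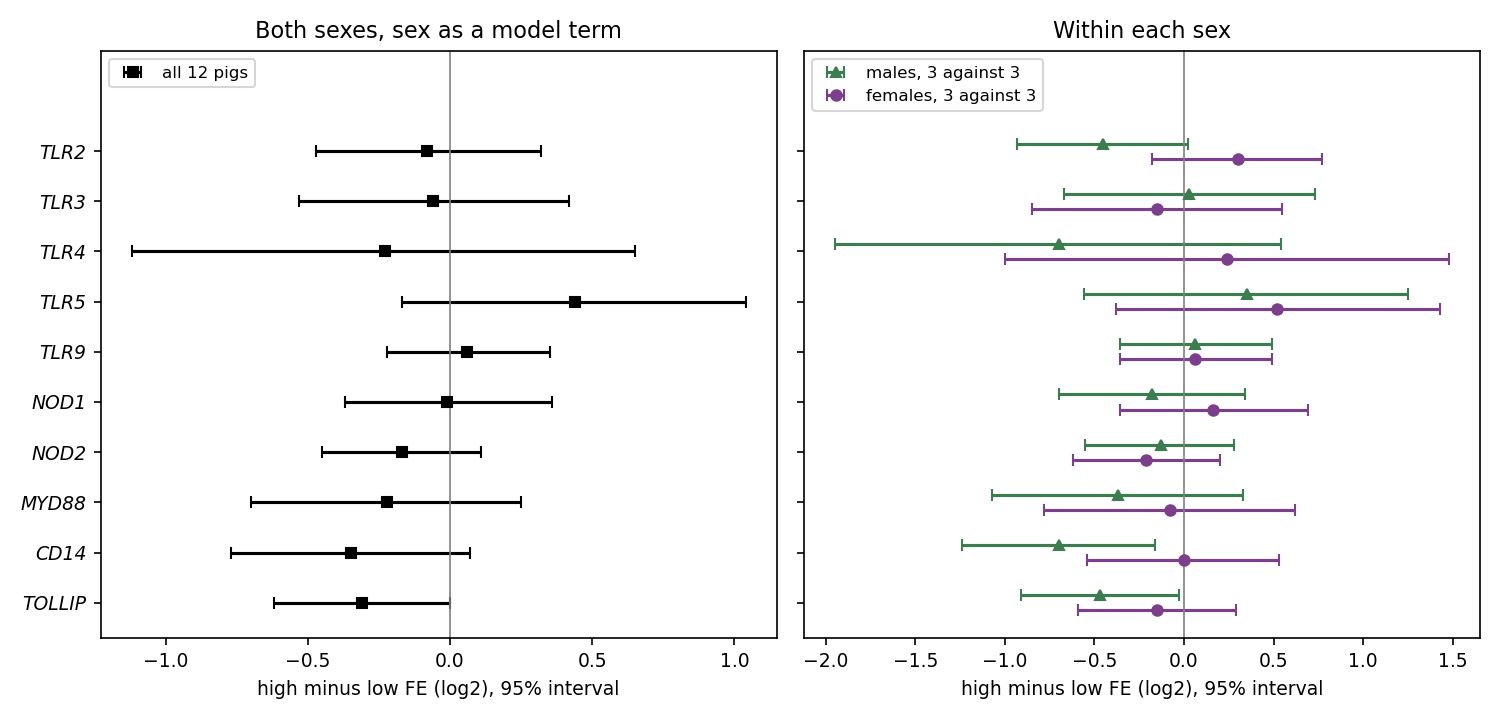
High minus low FE difference in log2 signal (horizontal axis) with its 95% interval for each gene, over all 12 pigs with sex as a term (left) and within males and within females (right, 3 against 3 pigs). On the left every interval reaches 0, with that of TOLLIP ending at 0.00. On the right only the male intervals of CD14 and TOLLIP lie wholly below 0.

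Within males, values of CD14 and of TOLLIP did not overlap between FE groups. CD14 was 4.14, 3.84 and 3.97 in high FE males and 4.34, 5.27 and 4.44 in low FE males. All 3 low FE males thus lay above all 3 high FE males, whereas the low FE females, at 4.18, 4.13 and 4.10, lay inside the range of the high FE females, at 3.82, 4.16 and 4.42. The CD14 difference was -0.70 ± 0.25 (SE, unadjusted p = 0.0151, adjusted p = 0.812, limma) in males and -0.00 ± 0.25 in females. The difference between the sexes in this value was -0.70 ± 0.35 (SE, unadjusted p = 0.069, adjusted p = 0.998, limma interaction term). Without low FE pig 2 the male difference was -0.41.

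TOLLIP was 5.54, 6.18 and 5.67 in high FE males and 6.19, 6.39 and 6.22 in low FE males. The highest high FE male and the lowest low FE male were 6.18 and 6.19, so the separation rested on a gap of the last printed digit. Its difference in males was -0.47 ± 0.20 (SE, unadjusted p = 0.0401, adjusted p = 0.812, limma), and in females -0.15 ± 0.20. The interaction was -0.32 ± 0.29 (SE, unadjusted p = 0.291, adjusted p = 0.998, limma). These 2 of 10 genes without overlap in males compare with 10.5% of all probe sets, and their 2 unadjusted calls with 5.61%. After adjustment 0 of the 10 genes and 0% of probe sets were called in males. Further probe sets of TLR4 (SNOWBALL_000107_st), TLR2 (SNOWBALL_001528_st) and TLR9 (SNOWBALL_015369_s_st) also had an unadjusted p under 0.05 in males (limma). Their male differences were -1.36 ± 0.38 (SE), -1.08 ± 0.44 and -0.60 ± 0.25, beside -0.70, -0.45 and 0.06 for the reported probe sets. Male values of SNOWBALL_000107_st did not overlap between FE groups. Each adjusted p was 0.812.

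In females TLR2 was the gene without overlap, 1 of 10 against 8.57% of all probe sets. Its log2 signal was 5.35, 5.40 and 5.57 in high FE females and 4.99, 5.09 and 5.33 in low FE females. In males the order was turned, with 4.82, 5.48 and 5.38 in high FE and 5.40, 5.62 and 6.0 in low FE. The TLR2 difference was 0.30 ± 0.22 (SE) in females and -0.45 ± 0.22 in males. The difference between these, -0.75 ± 0.31 (SE), had an unadjusted p of 0.0314 and an adjusted p of 0.998 (limma interaction term). It was the 1 gene of 10 with an unadjusted interaction p under 0.05, against 3.27% of all probe sets. After adjustment 0 of 10 were called, against 0.00299% of all probe sets. Of the other TLR2 probe sets, SNOWBALL_001528_st and SNOWBALL_011425_s_st gave interactions of -1.57 ± 0.63 (SE) and -0.58 ± 0.35. SNOWBALL_011611_st and SNOWBALL_039790_st, with mean log2 signals of 2.61 and 2.45 near the array background, gave -0.11 and 0.11. Female pigs gave 0 calls among the 10 genes by either rule, against 0% adjusted and 3.67% unadjusted.

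Between the sexes, none of the 10 genes passed, against 0.021% of all probe sets after adjustment and 4.54% at an unadjusted p under 0.05. Male and female values overlapped for all 10, and 0.269% of probe sets had no overlap. Male means were above female means for 7 genes and below for 3, with a median difference of 0.12 beside 0.00 over all probe sets tested. TLR3, TLR9 and TOLLIP had the lowest p. TLR3 spanned 7.80 to 8.81 in males and 8.33 to 9.40 in females, a male minus female difference of -0.34 ± 0.22 (SE). TLR9 spanned 4.57 to 4.95 in males and 4.31 to 4.97 in females, a difference of 0.20 ± 0.13, and TOLLIP differed by -0.22 ± 0.14. Each of these had an adjusted p of 0.975 (limma). The 95% interval lay within a doubling for 9 of the 10 genes, with TLR4 (-0.60 to 1.17) as the exception.

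The genes with several probe sets were checked for agreement between them. Both TLR5 probe sets followed each other closely over the 12 pigs (r = 0.92, rho = 0.93) and gave FE differences of 0.44 and 0.40. MYD88 (r = 0.73) and NOD2 (r = 0.50) had the same sign of the FE difference in both of their probe sets. The TLR9 probe sets did not follow each other (r = -0.32), and the second gave an FE difference of -0.34 ± 0.18 (SE) beside 0.06 for the first. For TLR2 the correlations with the reported probe set ran from -0.09 to 0.85 and for TLR3 from 0.27 to 0.81. FE differences ran from -0.30 to 0.02 over the TLR2 probe sets and from -0.25 to 0.02 over those of TLR3. The TLR2 correlation of -0.09 and FE difference of 0.02 came from SNOWBALL_039790_st, which was above the array background median on 8 of 12 arrays. The lowest FE difference of TLR3, that of SNOWBALL_000363_s_st, was -0.25 ± 0.12 (SE, unadjusted p = 0.0479, adjusted p = 0.753, limma), beside -0.06 for the reported one. These correlations describe 12 pigs and carry no test.

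TLR4 had 9 probe sets, 6 of them above the filter. The other 5 above the filter correlated with the reported one (SNOWBALL_000104_s_st) at 0.51 to 0.74. Their FE differences were -0.83, -0.66, -0.44, -0.30 and 0.05, beside -0.23 for the reported one. That of -0.44 ± 0.20 (SE), from SNOWBALL_022981_s_st, had an unadjusted p of 0.0499 and an adjusted p of 0.753 (limma). Probe set SNOWBALL_000107_st had log2 signals of 4.82, 5.87, 5.29, 5.97, 6.01 and 5.58 in high FE pigs 1 to 6 and of 5.91, 7.39, 6.76, 5.89, 5.89 and 6.69 in low FE pigs 1 to 6. Low FE pigs 2, 3 and 6 lay above every high FE pig, and the other 3 lay within the high FE range. The difference was -0.83 ± 0.30 (SE, unadjusted p = 0.0162, adjusted p = 0.753, limma). It was singled out after its values were seen.

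**Figure D3:**
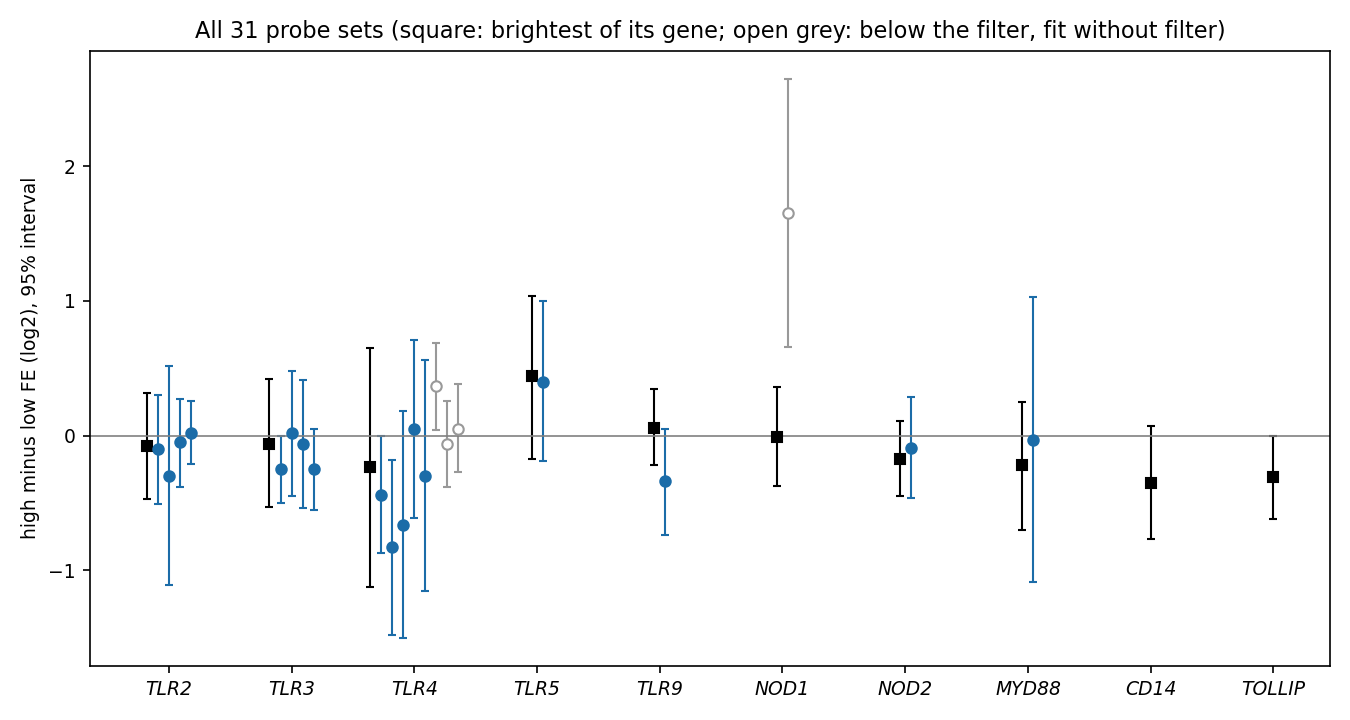
High minus low FE difference in log2 signal (vertical axis) with its 95% interval for all 31 probe sets of the 10 genes, with squares for the brightest probe set of a gene and open grey points for the 4 probe sets below the filter, fitted without it. TLR4 probe sets range from -0.83 to 0.37, and the dim NOD1 probe set lies at 1.65, apart from the brighter one at -0.01.

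The dimmer NOD1 probe set, SNOWBALL_019836_st, did not pass the filter, with a mean log2 signal of 2.06, and was also singled out after its values were seen. It read 3.47, 0.98, 3.12, 2.92, 4.12 and 2.74 in high FE pigs 1 to 6 and 2.46, 1.15, 0.81, 0.93, 0.93 and 1.15 in low FE pigs 1 to 6. It lay above its own array's background median in 5 high FE pigs and in 1 low FE pig, and at 0.81 to 1.15, below that median, on the other 6 arrays. In the fit without a filter, the difference was 1.65 ± 0.46 (SE, 95% interval 0.66 to 2.65, unadjusted p = 0.00344, adjusted p = 0.806, limma). Values below background have no order, so the size of this difference is not a fold change of a transcript. Its correlation with the brighter NOD1 probe set over the 12 pigs was 0.03. Which transcript each of them measures was not examined.

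**Figure D4:**
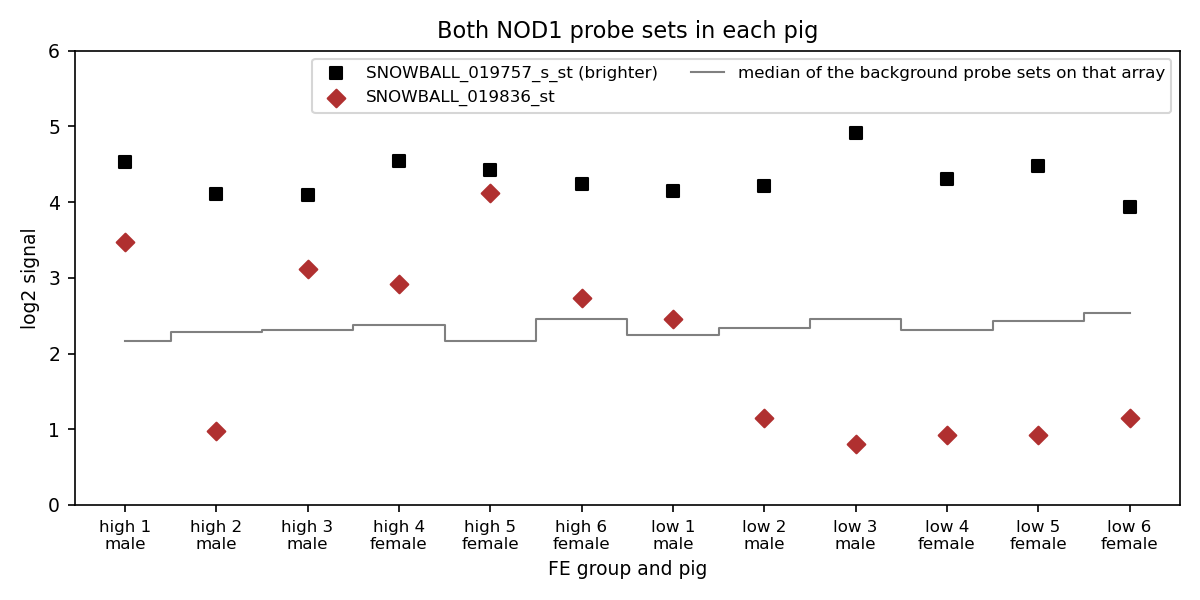
Log2 signal (vertical axis) of both NOD1 probe sets in each pig (horizontal axis, by FE group, pig number and sex), with the background median of each array as a grey line. The brighter probe set (black squares) lies between 3.93 and 4.91 in every pig. The dimmer one (red diamonds) is above the line in 5 high FE pigs and in low FE pig 1.

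The 10 genes were then set against each other over the 12 pigs, as 45 pairs. None passed an adjusted p of 0.05 by Pearson's r or by Spearman's rho (permutation tests with Benjamini-Hochberg adjustment), and 4 pairs by each measure had an unadjusted p under 0.05. The correlation was positive for 28 pairs, with a median r of 0.12. TLR2 and TLR4 had an r of 0.76 (permutation p = 0.00372, adjusted 0.0837) and a rho of 0.64 (permutation p = 0.0282, adjusted 0.424). Low FE pig 3 was highest in both genes. Without the 2 pigs farthest from the TLR2 median r was 0.61. It was 0.58 within high FE, 0.87 within low FE, 0.99 within males and 0.60 within females. With each pig left out in turn r ran from 0.66 to 0.86. The highest, without high FE pig 4, had an adjusted permutation p of 0.04, the lowest of these runs.

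MYD88 ran opposite to TLR5 and TLR3. Of 12265 other named genes, 3.56% were at least as negatively related to MYD88 as TLR5 was, and 6.6% as TLR3 was. In turn, 2.38% were at least as negatively related to TLR5 as MYD88 was, and 2.56% to TLR3. For TLR5 and MYD88, r was -0.77 (permutation p = 0.00314, adjusted 0.0837) and rho -0.68 (permutation p = 0.0191, adjusted 0.424). Without the 2 pigs farthest from the TLR5 median r was -0.69, and on residuals from the array background it was -0.39. For TLR3 and MYD88, r was -0.69 (permutation p = 0.0117, adjusted 0.175) and rho -0.78 (permutation p = 0.00383, adjusted 0.172). This relation was -0.82 without the 2 pigs farthest from the TLR3 median. Within groups it was -0.84 in high FE, -0.78 in low FE, -0.86 in males and -0.81 in females. On residuals from FE and sex it was -0.89, with an adjusted permutation p of 0.00765. That permutation made no allowance for the terms already fitted, so this p can be too small. On residuals from the array background r was -0.64. The fourth pair, TLR5 and NOD2, had an r of -0.66 (permutation p = 0.02, adjusted 0.225) and a rho of -0.55 (permutation p = 0.0666). Without the 2 pigs farthest from the TLR5 median its r was -0.43.

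Against 12 lists of cell type markers and the array background, 130 relations were computed, of which 3 passed by r and 2 by rho. At an unadjusted permutation p under 0.05 there were 14 by r and 16 by rho. TLR5 was opposite to the macrophage and monocyte mean, with an r of -0.90 (permutation p = 6.0e-05, adjusted 0.00737) and a rho of -0.86 (permutation p = 7.2e-04, adjusted 0.0468). It was opposite to the array background as well, with an r of -0.89 (permutation p = 1.4e-04, adjusted 0.00737) and a rho of -0.94 (permutation p = 4.0e-05, adjusted 0.0052). Without the 2 pigs farthest from the median of the marker mean or of the background these were -0.88 and -0.79. Within FE groups and sexes the first ran from -0.97 to -0.82 and the second from -0.97 to -0.73.

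The macrophage and monocyte list had 8 of its 13 genes above the filter. Of the 8, LYZ (10.46 to 12.65) was also on the Brunner gland and gastric-type list. CSF1R, CD68 and C1QB were not named in the annotation used, and FCGR1A, with a mean of 2.15, was near background. The mean of the 8 ranged from 7.08 to 7.39 in high FE and from 7.16 to 7.48 in low FE pigs. That mean itself rose with the array background (r = 0.86, permutation p = 5.6e-04, adjusted over 12 relations 0.00672). Of the 12266 other named genes, 0.88% were at least as negatively related to the array background as TLR5 was, and 0.114% to the macrophage mean. MYD88 had positive relations with both, r = 0.76 with the macrophage mean (permutation p = 0.00499, adjusted 0.106) and r = 0.72 with the array background (permutation p = 0.00842, adjusted 0.109). Of the other named genes, 4.8% were at least as positively related to the background. MYD88 was related to a like degree to the dendritic cell mean (r = 0.74, permutation p = 0.00697, adjusted 0.106) and the B and plasma cell mean (r = 0.72, permutation p = 0.00962, adjusted 0.114). The part of cell content or array background in these relations was not tested.

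**Figure D5:**
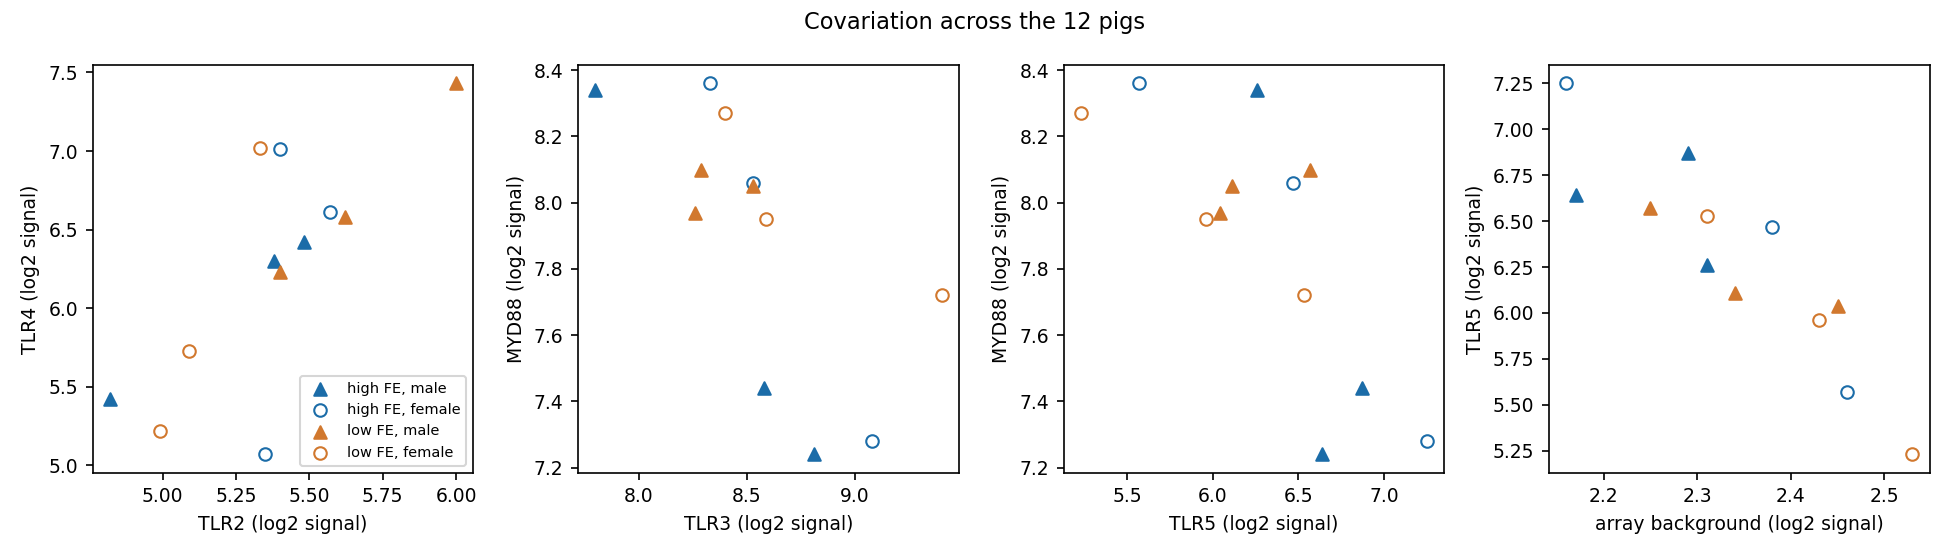
Log2 signal of TLR4 against TLR2, of MYD88 against TLR3 and TLR5, and of TLR5 against the array background, each point 1 pig, filled triangles for males and open circles for females, blue for high FE and orange for low FE. TLR4 follows TLR2 (r = 0.76), and the other panels slope downward, most closely TLR5 against background (r = -0.89).

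TLR2 followed the B and plasma cell mean, with an r of 0.87 (permutation p = 1.7e-04, adjusted 0.00737) and a rho of 0.78 (permutation p = 0.00428, adjusted 0.111). The r was 0.74 without the 2 pigs farthest from the median of the marker mean, and 0.77, 0.93, 0.90 and 0.82 within high FE, low FE, males and females. Of the 12266 other named genes, 0.302% were related at least as strongly in that direction. This list had 5 of its 10 genes above the filter, with means from 6.09 to 6.79 in high FE and from 6.12 to 6.85 in low FE pigs. CR2, JCHAIN and MZB1 were not named in the annotation used. XBP1, a secretory cell transcription factor on this list, was highest in low FE pigs 3, 2 and 6, at 10.02, 9.98 and 9.82. Those pigs were among the 4 with the highest Brunner gland and gastric-type means, at 11.55, 10.09 and 9.92. Other genes of the B and plasma cell list were ordered differently. CD79A and CD79B were highest in high FE pig 6, at 8.62 and 6.44, where the Brunner gland mean was 7.75. MS4A1 and PAX5 were highest in low FE pig 3, at 5.93 and 4.39, but MS4A1 was 4.53 in low FE pig 6. TLR2 had an r of 0.76 with that Brunner gland mean (permutation p = 0.00401, adjusted 0.104), and within females it was 0.11.

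TLR4 was opposite to the mature enterocyte mean (r = -0.78, permutation p = 0.00376, adjusted 0.104). It also ran with the mean of Brunner gland and gastric-type markers (r = 0.73, permutation p = 0.00702, adjusted 0.106). The Brunner gland mean ranged from 7.13 to 9.96 in high FE and from 8.04 to 11.55 in low FE pigs, and the enterocyte mean from 8.79 to 9.84 and from 8.45 to 10.05. Brunner glands lie in the submucosa beneath the duodenal mucosa. The list also holds gastric-type genes, and of these GKN1 (3.27 to 12.17) and GKN2 (2.62 to 11.10) had its widest ranges. MUC6 and TFF1 were not named in the annotation used. With the Brunner gland mean as a model term, the FE differences of TLR4 and TLR2 were 0.23 ± 0.33 (SE) and 0.12 ± 0.15, on the other side of 0 from the values without it. Neither the sampling depth of the mucosa nor its content of gastric-type cells was tested. CD14 had an r of 0.26 with the macrophage and monocyte mean (permutation p = 0.454, adjusted 0.809).

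The genes of the same pathways were examined as 8 lists of 104 symbols, of which 82 were on the array and 78 above the filter. None passed in the FE or sex comparison (limma). For FE, 37 of 78 had the higher mean in high FE pigs and 41 the lower, with a median of -0.00. Of the 78, 4 (5.13%) had an unadjusted p under 0.05, beside 5.99% of all probe sets. Sex gave 41 with the higher mean in males, 37 with the lower mean, and again 4 (5.13%) at an unadjusted p under 0.05, beside 4.54% of all probe sets.

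Among adaptors and kinases, 11 of 16 had the higher mean in high FE pigs, with a median of 0.11. TICAM1, the adaptor of TLR3, was at 5.52 ± 0.32 in high FE and 5.91 ± 0.14 in low FE pigs (SD, n = 6 each), a difference of -0.39 ± 0.15 (SE, unadjusted p = 0.0246). IKBKG, the regulatory subunit of the IKK complex, differed by 0.26 ± 0.12. TIRAP, TRAF6 and RIPK2 were not named in the annotation used. Of the other TLRs and co-receptors, 3 of 8 had the higher mean, with a median of -0.03, and the B cell TLR relative CD180 differed by -0.48 ± 0.22 (unadjusted p = 0.045). TLR10 differed by 0.18 ± 0.12. Each adjusted p in these lists was 0.753 or above (limma).

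Negative regulators had the higher mean in high FE pigs for 3 of 12, with a median of -0.05. SOCS3, an inhibitor of cytokine signalling, was at 5.42 ± 0.18 in high FE and 5.70 ± 0.14 in low FE pigs (SD, n = 6 each), a difference of -0.28 ± 0.11 (SE, unadjusted p = 0.027). PELI1, a ubiquitin ligase of the pathway, differed by 0.34 ± 0.15. Cytosolic nucleic acid sensors had the higher mean for 1 of 6, with a median of -0.21, and DHX58, a RIG-I-like helicase, differed by -0.32 ± 0.16. TMEM173 (STING) differed by -0.26 ± 0.18 over all pigs.

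In the remaining lists, transcription factors split 5 to 4 (median 0.01), with REL at 0.46 ± 0.23 and IRF3 at 0.13 ± 0.11 (difference and SE). Inflammasome and other NLR genes split 3 to 3 (median 0.02), with NLRP3 at 0.08 ± 0.11 and NLRP1 at -0.05 ± 0.14. Lectin and peptidoglycan receptors split 2 to 5 (median -0.18), with PGLYRP4 at -0.33 ± 0.26 and PGLYRP1 at 0.18 ± 0.13. Inflammatory target genes split 9 to 5 (median 0.05), with IL8 at 0.35 ± 0.24 and CCL2 at 0.28 ± 0.13. These pathway differences did not pass the threshold after adjustment.

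In the sex comparison the lowest p among the list genes belonged to CLEC7A, the beta-glucan receptor dectin-1, and to CCL2, a monocyte chemokine. CLEC7A had a mean log2 signal of 5.04 in males and 4.26 in females, a difference of 0.79 ± 0.21 (SE, unadjusted p = 0.00253, adjusted p = 0.975, limma). CCL2 was at 5.87 and 5.38, a difference of 0.49 ± 0.13 (unadjusted p = 0.0027, adjusted p = 0.975, limma). NLRX1, a mitochondrial NLR protein, differed by -0.28 ± 0.11. IL1B differed by 0.34 ± 0.13, at levels near the array background. The other genes of lowest p per list were CD180 (-0.37 ± 0.22), LY96 (0.30 ± 0.17), TAB3 (-0.33 ± 0.18), TBK1 (0.37 ± 0.22), IRF5 (0.26 ± 0.19) and FOS (0.23 ± 0.19). For SOCS3, IFIH1, DDX58, NLRP6, NLRP1 and PGLYRP2 the male minus female differences were -0.16 ± 0.11, -0.25 ± 0.19, -0.43 ± 0.22, -0.36 ± 0.18, 0.12 ± 0.14 and -0.40 ± 0.43.

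The genes whose log2 signal followed each receptor most closely over the 12 pigs are given as a description, among 12266 named genes and by Pearson's r without a test. For TLR2 they were NIT2 (0.94), ADPRHL1 (0.93) and SLC39A1 (0.92), and for TLR4 they were DAG1 (0.92), SVEP1 (0.89) and MID2 (0.89). TLR4 ranked 156th among the genes following TLR2, and TLR2 ranked 87th for TLR4. TLR5 was followed by KLHL9, MAN1A2 and ABL2 at 0.95 each. TLR3 was followed by JAK2 (0.87), MAP3K1 (0.87) and PGAP1 (0.84), of which JAK2 and MAP3K1 are signalling kinases. TLR9 was followed by SSBP4 (0.91), TTC7B (0.89) and TNFAIP8L2 (0.89).

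For NOD1 the closest were ZP3 (0.91), XKR5 (0.83) and RGS8 (0.82). NOD2 was followed by WFDC1 (0.88), DUOX1 (0.88), an epithelial NADPH oxidase, and PPP1R14C (0.87). MYD88 had the highest values, with GRTP1 (0.97), NHEJ1 (0.96) and PTDSS1 (0.95). CD14 was followed by ID1 (0.92, with a rho of 0.64), NR4A2 (0.86) and C1S (0.86), and the reading of 5.27 in low FE pig 2 weighs on these. TOLLIP was followed by CMTM6 (0.87), FOXE1 (0.86) and OSR1 (0.86). None of the 10 genes was among the 3 closest of another.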

How the data were processed

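Total RNA of each pig was the starting material, and biotin-labelled cDNA was hybridised to 1 array per pig, per the labels' protocols. The authors deposited log2 signals per probe set, a scale read from the values, which run from 0.21 to 14.21. The tool listed, per the submitters' processing notes, is GCOS 1.1.1. How signals were corrected for background and normalized is not given in the sources used here, so the values were left as deposited. Gene symbols came from the platform annotation, which can be old: 26426 probe sets had 1 symbol, 0 had several and 21296 other than controls had none. All 10 genes are in the RefSeq Sscrofa11.1 gene table. The array gives no build, so no coordinates are printed.

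The 123 control probe sets were left out, and probe sets with a mean above the 30th percentile (2.37) were kept, 33405 in all. A linear model per probe set (lmFit and eBayes of limma 3.58.1, R 4.3.3) held FE and sex as terms, and a second model held 4 group means for the interaction and for each sex. Adjustment was Benjamini-Hochberg over all 33405, and intervals are 95%. The fit was tested on simulated data. Correlations used 100000 permutations, two-sided, with scipy 1.17.1, adjusted within each family. Pigs are separate animals, and their number limits the precision. Genes outside the 10 were named as the 2 of lowest unadjusted p per pathway list and comparison, since none passed, and as the 3 of highest r. The members and lists were chosen with earlier results of these data known. Alternatives changed the filter, normalization, moderation, array weights, probe set choice, model terms and pigs included.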

Additional observations from a re-analysis of the deposited data

Results flagged for a closer look

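In 88 groups examined (22 values in 4 groups each of 6 pigs), 7 had a pig whose gap to the next pig exceeded Dixon's 95% critical share of the group's range. Chance alone gives about 1 in 20 for independent groups of normally distributed values. Each pig here was in an FE group and in a sex group for the same value, so the 7 cannot be judged against that rate. High FE pig 1 was lowest for TLR2 among high FE pigs, at 4.82 with the next at 5.35. Low FE pig 4 was highest for TLR3 among low FE pigs, at 9.40 with the next at 8.59. Low FE pig 1 was lowest for TLR9 among males, at 4.57 with the next at 4.81. Low FE pig 2 was highest for CD14 among low FE pigs, at 5.27 with the next at 4.44. High FE pig 4 had the lowest smooth muscle marker mean of the high FE pigs, at 7.71 with the next at 7.98. Low FE pig 6 had the highest pancreatic acinar marker mean, at 6.92 with the next at 3.66, both among low FE pigs and among females.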

How the results depend on the processing

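No gene of the 10 passed the threshold in any comparison under the alternatives run for it, including each pig left out. Besides the pigs left out, 14 alternatives were run for the FE and sex differences. Only 1, quantile normalization, was run for the interaction, and 2 for the FE difference within each sex. No paired analysis was possible because pig numbers only name pigs, and no label ties pigs of different groups together. The number of passing pairs, 0, became 1 on residuals from FE and sex (TLR3 and MYD88), by a p that made no allowance for the terms fitted. It ranged from 0 to 1 with a pig left out (TLR2 and TLR4, without high FE pig 4). Some differences changed sign, none of them called. Except for the mean of all probe sets, the cause was not tested. Adding the array background to the model, the FE difference was 0.07 for TLR2 and 0.01 for MYD88, and the sex difference -0.10 for TLR5 and 0.13 for MYD88. With the macrophage mean as a term, FE gave 0.03 for TLR2 and 0.07 for TLR4, and sex -0.01 for NOD1. With the Brunner gland mean as a term, FE gave 0.12 for TLR2, 0.23 for TLR4 and 0.03 for NOD1, and sex -0.01 for NOD1. The mean of all probe sets, which for NOD1 averages in the dim probe set at 1.65, gave FE differences of -0.14 for TLR9 and 0.82 for NOD1, and sex differences of -0.04 for TLR9 and -0.06 for NOD1. Array weights gave -0.02 for sex in NOD1. Quantile normalization gave 0.02 for CD14 in females. Adding the run of pig identifiers to the model, which the labels do not call a batch and whose second run held only females, sex gave -0.09 for TLR5 and for NOD1 and 1.25 ± 0.44 (SE) for TLR4, against 0.29 without it.

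With each pig left out in turn, FE differences ran from -0.15 to 0.05 for TLR2, -0.16 to 0.09 for TLR3, -0.0022 to 0.11 for TLR9 and -0.09 to 0.12 for NOD1. They kept their sign for TLR4 (-0.46 to -0.03), TLR5 (0.24 to 0.62), NOD2 (-0.22 to -0.11), MYD88 (-0.36 to -0.10), CD14 (-0.46 to -0.18) and TOLLIP (-0.38 to -0.24). Leaving out high FE pig 4 gave -0.03 for TLR4, leaving out low FE pig 3 also gave -0.03 and leaving out high FE pig 1 gave -0.04. MYD88 was at -0.10 without high FE pig 5. Sex differences ran from -0.12 to 0.06 for NOD1 and -0.22 to 0.03 for MYD88. The interaction ran from -0.12 to 0.48 for TLR3, -0.60 to 0.24 for TLR5, -0.12 to 0.15 for TLR9 and -0.06 to 0.19 for NOD2. Within males, TLR3 ran from -0.17 to 0.33, TLR9 from -0.06 to 0.13 and NOD1 from -0.32 to 0.07. Within females, TLR3 ran from -0.36 to 0.16, TLR4 from -0.15 to 0.82, TLR9 from -0.09 to 0.17, MYD88 from -0.31 to 0.23 and CD14 from -0.15 to 0.15. The mean signals of NOD1, NOD2 and CD14 were above 60.9% of the background probe sets, the lowest share among the 10 genes, which limits how securely they were measured.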
